A study of Homo sapiens with 16 samples.

Results

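The genes described here are 10 markers of protein folding in the endoplasmic reticulum (ER) and of the unfolded protein response: HSPA5, HSP90B1, PDIA4, DNAJB9, DNAJC3, SDF2L1, CRELD2, MANF, HERPUD1 and XBP1. They were chosen by gene symbol out of 42351 genes in the table of counts, and all 10 were among the 15067 genes that passed the filter on low counts. RNA sequencing was carried out on human lung cancer cell lines stimulated with HGF, the ligand of the receptor tyrosine kinase MET, and the design addresses how the response in time differs when MET lacks the segment encoded by exon 14. Cells expressing wt MET were A549, and cells expressing MET∆14, in which exon 14 is skipped, were NCI-H596. These names follow the sample labels. The study's text names EKVX as its line with wt MET, so that the identity of the wt MET cells rests on the labels. Each line was deprived of serum and then kept for 0, 3, 6 or 12 h with HGF. The labels give 12 h of serum deprivation for every sample, whereas the study's text gives a longer time. There were 2 replicates for each of the 8 conditions and 16 libraries in all. Each MET status was represented by 1 cell line, so that effects of MET∆14 and other differences between A549 and NCI-H596 cannot be told apart. No time course without HGF was analysed here, so that effects of HGF and of time in culture cannot be told apart either. The study's text calls the replicates biological, but neither it nor the labels say whether they were separate cultures, and p-values therefore measure the spread between these libraries, which may be technical.

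Secretory and membrane proteins fold in the ER with the help of chaperones, cochaperones and enzymes that form disulfide bonds. When unfolded proteins accumulate there, the sensors IRE1, PERK and ATF6 start the unfolded protein response: IRE1 splices XBP1 messenger RNA so that it encodes an active transcription factor, cleaved ATF6 enters the nucleus, and PERK slows translation while favouring ATF4. ATF6 and spliced XBP1 then raise transcription of many ER chaperone genes through short promoter elements, and the same genes are used as readouts of ER stress and of secretory load in epithelial and tumour cells.

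Total counts ran from 10158590 to 23909304 per library, with a median of 15811012. Replicates differed by more than counting noise in every condition, with a chi-square per degree of freedom of 2.753 to 9.801 in 7 of the conditions. The MET∆14 libraries at 12 h stood apart with 34.07, and because all libraries share 1 estimate of the spread, counts are also given without that pair. The shared estimate may be too small for this pair, so that calls at 12 h in MET∆14 may be too confident. Where 1 of the pair is left out, the other is judged by the spread of the other conditions. The lines were distinct by their own genes: CDKN2A, a tumour suppressor gene, had a count of 0 in every wt MET library and 1466 to 3464 counts in the MET∆14 libraries. Keratin 18 (KRT18), a marker of epithelial cells, had 5496 to 25455 counts over all libraries. EPCAM, another epithelial marker, was low in wt MET at 13 to 42 counts, against 295 to 739 in MET∆14, and the leukocyte markers PTPRC and CD3E had at most 2.

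Promoters were read from RefSeq (GRCh38.p14) as 250 bases before to 50 bases after each annotated start. All 10 genes matched, PDIA4 and XBP1 with 2 promoters each. The elements searched on both strands were the ER stress response element ERSE (CCAAT, 9 bases of any kind, CCACG), ERSE-II (ATTGG, 1 base, CCACG) and the core of the unfolded protein response element (UPRE, TGACGTGG). The exact ERSE was found in promoters of HSPA5, HSP90B1, CRELD2 and XBP1, that is in 4 of the 10 genes. Of all genes with a promoter, 25 of 27305 held it (0.0916%). The 10 genes were chosen as markers of a response known to act through such elements, so that this comparison is no test. The exact ERSE-II was found in SDF2L1 and HERPUD1, and in 19 of all genes with a promoter (0.0696%). These stretches are shown because they are where ATF6 and XBP1 are known to act, in 5′ to 3′ order along the gene, with both parts of each element in capitals. An element on the opposite strand reads as its reverse complement, CGTGG before ATTGG for ERSE and CGTGG before CCAAT for ERSE-II.
HSPA5, ERSE, gene strand, chr9:125241371-125241429 (minus strand): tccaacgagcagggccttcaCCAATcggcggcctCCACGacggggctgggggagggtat
HSP90B1, ERSE, gene strand, chr12:103930196-103930254 (plus strand): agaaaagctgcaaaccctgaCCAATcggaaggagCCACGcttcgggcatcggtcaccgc
HSP90B1, ERSE, opposite strand, chr12:103930301-103930359 (plus strand): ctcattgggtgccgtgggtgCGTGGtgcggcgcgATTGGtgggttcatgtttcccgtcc
CRELD2, ERSE, opposite strand, chr22:49918534-49918592 (plus strand): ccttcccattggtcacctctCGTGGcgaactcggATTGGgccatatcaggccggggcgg
XBP1, ERSE, gene strand, chr22:28800583-28800641 (minus strand): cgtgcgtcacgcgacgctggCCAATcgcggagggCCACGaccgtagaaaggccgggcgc
SDF2L1, ERSE-II, opposite strand, chr22:21642094-21642144 (plus strand): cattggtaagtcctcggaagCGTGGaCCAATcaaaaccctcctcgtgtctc
HERPUD1, ERSE-II, gene strand, chr16:56932005-56932055 (plus strand): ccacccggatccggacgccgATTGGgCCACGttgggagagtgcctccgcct
The exact ERSE elements lay between positions -194 and -34 from the start. With 1 mismatch allowed, ERSE was found in 7 of the 10 genes, DNAJC3, SDF2L1 and HERPUD1 being added. It was found in 1.89% of all genes with a promoter. The looser match in SDF2L1 overlapped its ERSE-II, so that these are not separate sites. The UPRE core was in no promoter of the 10 genes and in 0.927% of all genes with a promoter. PDIA4, DNAJB9 and MANF held none of the searched elements in these windows. A match is a description of the letters and not evidence of binding.

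Before HGF, the genes spanned a wide range of levels, and 8 of the 10 differed between the lines. Levels between genes are compared as FPKM (mean ± SD, n = 2), which are counts scaled by library size and by the length of the union of annotated exons. In wt MET, HSPA5, the ER HSP70 known as BiP, was highest at 156 ± 13.6 FPKM, followed by HSP90B1, the ER HSP90 known as GRP94, at 58 ± 2.55. XBP1 at 31.3 ± 4.47 and HERPUD1 at 29.3 ± 0.66 overlapped between their replicates, as did DNAJB9 at 25.2 ± 3.22 and PDIA4 at 21.7 ± 3.02. DNAJC3 at 13.6 ± 0.656, MANF at 8.49 ± 0.233 and SDF2L1 at 7.63 ± 0.162 came next without overlap, and CRELD2 was lowest at 0.665 ± 0.05. In MET∆14, HSPA5 was again highest at 198 ± 17.5 FPKM and CRELD2 again lowest at 5.67 ± 0.0277. PDIA4, however, took the second place at 82 ± 6.96, above HSP90B1 at 66.2 ± 3.69, and the order of this pair turned when the longest transcript was used as the length. With that length HERPUD1 also stood above XBP1 in wt MET, at 52 against 43.6 FPKM, and SDF2L1 took the seventh place in MET∆14, at 13.1. XBP1 at 32.6 ± 1.33, HERPUD1 at 16.5 ± 1.08 and MANF at 14.1 ± 1.55 followed. Next came DNAJB9 at 12.4 ± 0.84 and DNAJC3 at 11.8 ± 0.175, whose replicates overlapped, and SDF2L1 at 10.2 ± 0.158. Part of the exons of HSP90B1 (6.95%) and CRELD2 (3.25%) overlapped exons of genes on the opposite strand, and whether counting used strand is not given in the sources used here, so that their levels are uncertain to that extent.

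Between the lines at 0 h, 5 genes were higher and 3 lower in MET∆14, where 40.6% of all tested genes were higher and 39.6% lower, so that a difference between the lines was as frequent here as among all genes. A gene is called higher or lower where the adjusted p of edgeR's quasi-likelihood test (Benjamini-Hochberg over the 15067 genes) was under 0.05. The largest difference was in CRELD2, which encodes a cysteine-rich ER protein with EGF-like domains, at 3.617 and 3.252 CPM (counts scaled to the size of each library) in wt MET and 29.2 and 29.4 CPM in MET∆14, an 8.52-fold higher level (log2 fold change 3.09, SE 0.159, edgeR adjusted p = 7.19e-11). PDIA4, a protein disulfide isomerase, followed with 78.57 and 64.48 CPM in wt MET against 286.8 and 254.4 CPM in MET∆14 (log2 fold change 1.92, SE 0.105, edgeR adjusted p = 1.55e-10). MANF (log2 0.73, edgeR adjusted p = 0.00152), SDF2L1 (log2 0.42, edgeR adjusted p = 0.02) and HSPA5 (log2 0.34, edgeR adjusted p = 0.00946) were also higher. DNAJB9 (log2 -1.03, edgeR adjusted p = 7.08e-06) and HERPUD1 (log2 -0.83, edgeR adjusted p = 2.97e-07) were lower in MET∆14. XBP1 was at 104.3 and 85.19 CPM in wt MET and at 101.5 and 95.81 CPM in MET∆14, with overlapping replicates. Calls that ended with a library left out were those of HSPA5 (wt MET 0 h replicate 2 or MET∆14 0 h replicate 1, adjusted p up to 0.0823) and SDF2L1 (wt MET 0 h replicate 1 or MET∆14 0 h replicate 2, up to 0.0747). The small difference in DNAJC3 (log2 -0.20, edgeR adjusted p = 0.0306) was lost without wt MET 0 h replicate 1, any wt MET library at 3, 6 or 12 h or any MET∆14 library at 0 or 3 h (adjusted p up to 0.169), with no filter on low counts (0.168) and with at least 10 counts required in every library (log2 -0.0988, adjusted p = 0.255).

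Against 0 h, HSPA5, DNAJB9 and HERPUD1 were called in both lines at some time, and each of the other genes in 1 line or in neither. This is a list of calls, with no share of all tested genes called in both lines beside it. It also depends on the threshold, which DNAJC3 narrowly missed at 12 h in wt MET (edgeR adjusted p = 0.0511). In wt MET, HSPA5, DNAJB9, HERPUD1 and XBP1 were higher at 12 h while PDIA4 fell from 3 h onward. In MET∆14, HERPUD1 fell from 3 h onward, DNAJB9 was higher at 3 h, and HSPA5, DNAJC3, SDF2L1, CRELD2 and MANF were higher at 6 h. At 12 h in MET∆14, DNAJC3 and SDF2L1 were called higher and no other of the 10 genes was. HSP90B1 was called at no time in either line by this test. All times of a line are compared with the same 2 libraries at 0 h. They are not independent of each other. In bulk RNA, a lower level can come from fewer cells of a kind or from less RNA per cell, which cannot be told apart.

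**Figure D1:**
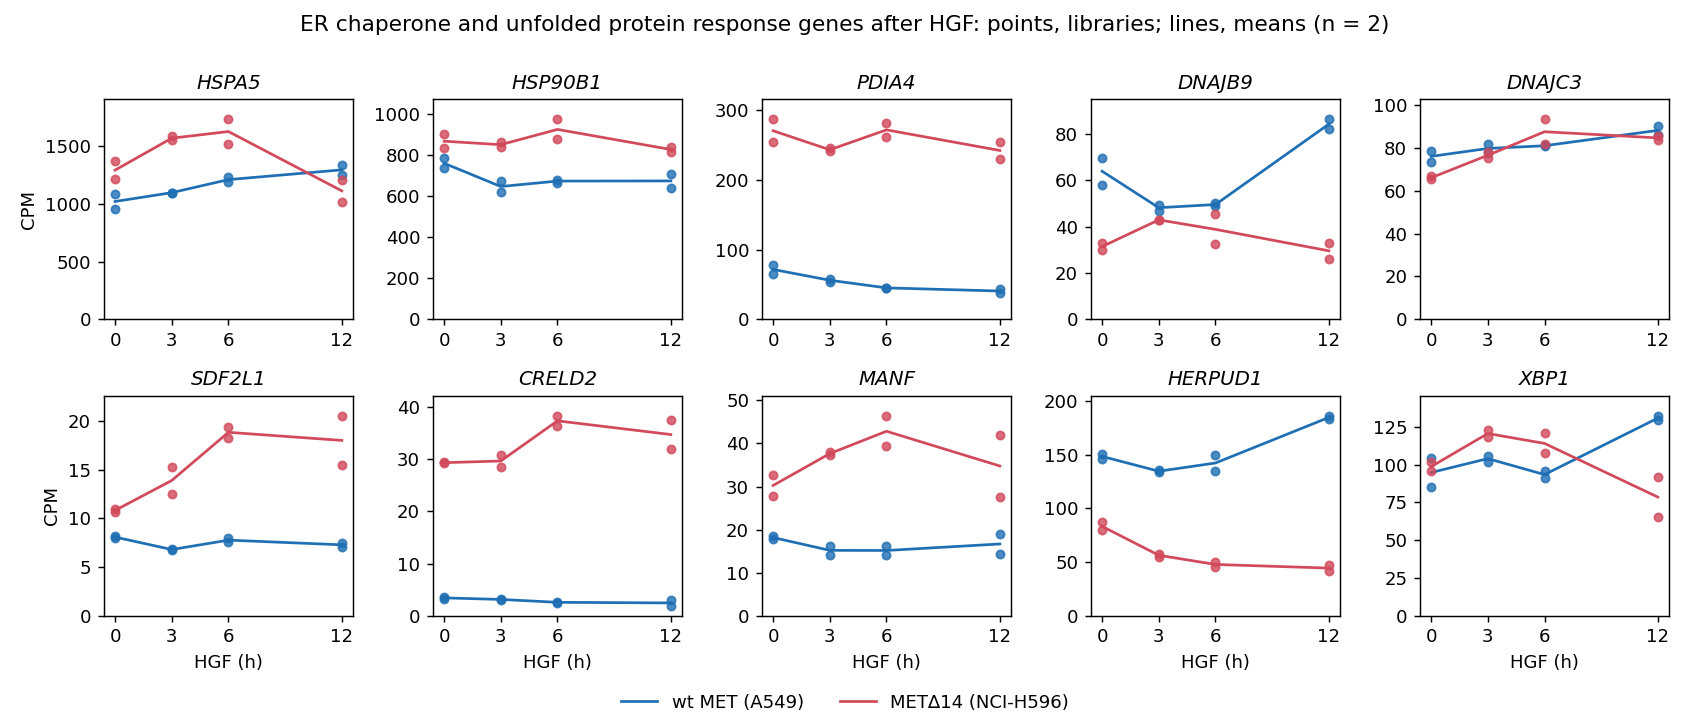
CPM of each of the 10 genes (y axis, linear from 0) at 0, 3, 6 and 12 h of HGF (x axis); points are the 2 libraries of a condition, lines join their means, blue is wt MET and red MET∆14. HERPUD1 ends at 183.3 and 185.9 CPM in wt MET and at 41.27 and 47.56 CPM in MET∆14, and CRELD2 and PDIA4 lie higher in MET∆14 at every time.

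Counted against all tested genes, the 10 genes were called less or about as often as the background at most times, with exceptions at 12 h in wt MET and 6 h in MET∆14. In wt MET at 3 h, 0 genes were higher, where 10.3% of all tested genes were, and 1 was lower, where 7.16% were. At 6 h in wt MET, 0 were higher (16.4% of all tested) and 1 was lower (17.8% of all tested). At 12 h in wt MET, 4 of 10 were higher (16.9% of all tested) and 1 was lower (18.2% of all tested). Of these 5 calls, those of HSPA5, DNAJB9, HERPUD1 and XBP1 ended when either wt MET 12 h library was left out, and that of PDIA4 was kept. The calls of HSPA5, DNAJB9 and XBP1 also ended without wt MET 0 h replicate 2. In MET∆14 at 3 h, 1 was higher (15.5% of all tested) and 1 lower (16.1% of all tested), with a median log2 fold change of 0.25 over the 10 genes against -0.05 over all tested genes. At 6 h in MET∆14, 5 of 10 were higher (21.6% of all tested) and 1 lower (22.5% of all tested), with a median of 0.33 against -0.04. These 6 calls fell to 3 without MET∆14 0 h replicate 2 or 6 h replicate 2. At 12 h in MET∆14, 2 were higher (18.3% of all tested) and 1 lower (20.1% of all tested), with a median of -0.08 against -0.02. For the counts of 0 higher in wt MET, DESeq2 called 2 of the 10 genes at 3 h and 2 at 6 h in either direction, and an unadjusted p under 0.05 was reached by 3 genes at each time. Without the pair of MET∆14 libraries at 12 h, a setting chosen after seeing the data, more genes were called. In wt MET there were then 3 at 3 h, 4 at 6 h and 8 at 12 h. The corresponding numbers in MET∆14 were 7 at 3 h and 8 at 6 h. Calls over all tested genes rose as well. In wt MET they went from 2629 to 4176 at 3 h, from 5153 to 6659 at 6 h and from 5284 to 6896 at 12 h. In MET∆14 they went from 4769 to 6329 at 3 h and from 6646 to 8118 at 6 h. Over any time, 4 genes were called in wt MET, where 40.3% of all tested genes were, and 6 in MET∆14, where 54.1% were. A single time effect shared by both lines was called in 2 genes, PDIA4 (lower) and DNAJC3 (higher), where 30.6% of all tested genes were called. It was called in 0 genes without wt MET 0 h replicate 2, either wt MET 12 h library, MET∆14 0 h replicate 1, either MET∆14 3 h library or MET∆14 6 h replicate 1. It was called in 1 gene without wt MET 0 h replicate 1, any wt MET library at 3 or 6 h, MET∆14 0 h replicate 2 or MET∆14 12 h replicate 1.

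**Figure D2:**
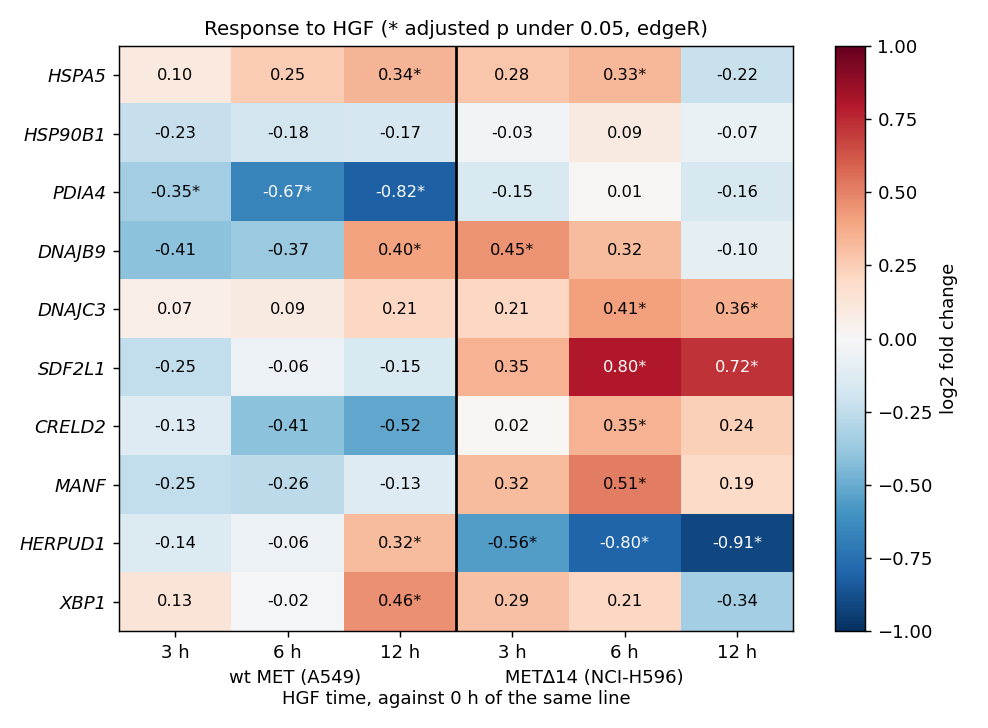
Log2 fold changes of the 10 genes (rows) against 0 h of the same line at 3, 6 and 12 h of HGF (columns, wt MET left, MET∆14 right); red is higher, blue lower, and an asterisk marks an adjusted p under 0.05 in edgeR. The extremes are HERPUD1 (-0.91) and SDF2L1 (0.80) in MET∆14 and PDIA4 (-0.82) in wt MET, all called.

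HERPUD1 (ENSG00000051108, hg38 chr16:56932142-56944864) encodes a membrane protein of the ER that takes part in the degradation of misfolded proteins, and of the 10 genes it had the largest difference in response between the lines. In MET∆14 it was at 87.15 and 79.42 CPM at 0 h, 57.73 and 54.96 at 3 h, 45.88 and 49.74 at 6 h, and 41.27 and 47.56 at 12 h. Every library after HGF was below both at 0 h. The log2 fold change was -0.56 (SE 0.0891, edgeR adjusted p = 0.000193) at 3 h, -0.80 (SE 0.0892, edgeR adjusted p = 4.67e-06) at 6 h and -0.91 (SE 0.0907, edgeR adjusted p = 2.78e-06) at 12 h. Each of these calls was kept with any 1 library left out. In wt MET the gene was at 146 and 150.7 CPM at 0 h, 133.6 and 135.5 at 3 h, 134.5 and 149.9 at 6 h, and 183.3 and 185.9 at 12 h. It was called only at the last time, with a log2 fold change of 0.32 (SE 0.0852, edgeR adjusted p = 0.00986) against 0 h. Against 6 h it was 0.38 (SE 0.0852, edgeR adjusted p = 0.00946). The first of these calls ended without wt MET 0 h replicate 1 or either 12 h library (adjusted p up to 0.0655). The second ended without wt MET 6 h replicate 1 or either 12 h library (up to 0.197).

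XBP1 (ENSG00000100219, hg38 chr22:28794555-28800597) encodes the transcription factor that IRE1 activates by splicing, and counts per gene do not separate the spliced from the unspliced form. Its course at 12 h differed between the lines. In wt MET it was at 104.3 and 85.19 CPM at 0 h, 102 and 105.9 at 3 h, 91.21 and 95.56 at 6 h, and 129.4 and 132.1 at 12 h. The rise at 12 h was 0.46 on the log2 scale against 0 h (SE 0.129, edgeR adjusted p = 0.0116) and 0.49 against 6 h (SE 0.129, edgeR adjusted p = 0.0234). The call against 0 h ended without wt MET 0 h replicate 2 or either 12 h library (adjusted p up to 0.138). The call against 6 h ended without any wt MET library at 3, 6 or 12 h (up to 0.198). In MET∆14 it was at 101.5 and 95.81 CPM at 0 h, 122.9 and 118.2 at 3 h, 107.4 and 120.6 at 6 h, and 65.03 and 91.96 at 12 h. Both libraries at 12 h lay below all others of the line but were far from each other. Against 6 h the level was lower at 12 h (log2 fold change -0.55, SE 0.13, edgeR adjusted p = 0.00968). Against 0 h no time was called (log2 fold changes 0.29, 0.21 and -0.34, edgeR adjusted p = 0.102, 0.202 and 0.0532). Without MET∆14 12 h replicate 2, the value at 12 h was -0.612 and called lower (edgeR adjusted p = 4.6e-05). It was also called without either wt MET library at 0 h (adjusted p = 0.0439 and 0.0481). The values at 3 and 6 h were called without either MET∆14 library at 12 h, and without the pair (edgeR adjusted p = 0.00136 and 0.0105). The call against 6 h ended without MET∆14 6 h replicate 2 or 12 h replicate 1 (adjusted p up to 0.121) and with each line fitted alone (0.0674).

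HSPA5 (ENSG00000044574, hg38 chr9:125234853-125241382) encodes BiP, the chaperone that also holds the sensors inactive in unstressed cells. In wt MET it was at 1083 and 957.9 CPM at 0 h, 1098 and 1096 at 3 h, 1190 and 1230 at 6 h, and 1253 and 1336 at 12 h. The libraries after HGF were all above those at 0 h, and 12 h was called higher (log2 fold change 0.34, SE 0.108, edgeR adjusted p = 0.023), a call that ended without wt MET 0 h replicate 2 or either 12 h library (adjusted p up to 0.168). At 6 h in wt MET the rise was not called by edgeR (log2 fold change 0.25, adjusted p = 0.0949). DESeq2 (adjusted p = 0.0398) and edgeR without the pair of MET∆14 libraries at 12 h (0.00613) called it. In MET∆14 the gene was at 1373 and 1211 CPM at 0 h, 1586 and 1552 at 3 h, 1522 and 1731 at 6 h, and 1017 and 1208 at 12 h. The level was higher at 6 h (log2 fold change 0.33, SE 0.108, edgeR adjusted p = 0.0211) and lower at 12 h than at 6 h (log2 fold change -0.55, SE 0.109, edgeR adjusted p = 0.0033). The first call ended without MET∆14 0 h replicate 2 or 6 h replicate 2 (adjusted p up to 0.215) and with each line fitted alone (0.0578). The second ended without MET∆14 6 h replicate 2 (0.0658). Against 0 h, the level at 3 h was not called by edgeR (log2 fold change 0.28, adjusted p = 0.061). DESeq2 (adjusted p = 0.0216) and edgeR without the pair of MET∆14 libraries at 12 h (0.000817) called it. The level at 12 h was not called against 0 h (log2 fold change -0.22, edgeR adjusted p = 0.132). Without MET∆14 12 h replicate 2 it was -0.357 and called lower (edgeR adjusted p = 0.00343).

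HSP90B1 (ENSG00000166598, hg38 chr12:103930107-103953931), the ER chaperone GRP94, was called at no time by edgeR, and its promoter is the one shown above with 2 exact ERSE. In wt MET its libraries were at 783.2 and 736 CPM at 0 h and between 620.1 and 706.2 CPM afterwards. All 6 later libraries were below both at 0 h, but no time passed the test (log2 fold changes -0.23, -0.18 and -0.17, edgeR adjusted p = 0.0929, 0.153 and 0.155). DESeq2 called it lower at 3 h (adjusted p = 0.0412), and without the pair of MET∆14 libraries at 12 h edgeR called each time (adjusted p = 0.0116, 0.0471 and 0.0346). In MET∆14 its 8 libraries were between 813.9 and 972.6 CPM and overlapped 0 h at every time.

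PDIA4 (ENSG00000155660, hg38 chr7:149003062-149028662), which catalyses formation and exchange of disulfide bonds, fell in wt MET and was called at no time in MET∆14. In wt MET it was at 78.57 and 64.48 CPM at 0 h, 58.22 and 53.83 at 3 h, 44.91 and 45.22 at 6 h, and 37.87 and 43.19 at 12 h. All libraries after HGF were below those at 0 h, and those at 12 h below those at 6 h. The log2 fold change was -0.35 (SE 0.107, edgeR adjusted p = 0.0345) at 3 h, -0.67 (SE 0.108, edgeR adjusted p = 0.00025) at 6 h and -0.82 (SE 0.108, edgeR adjusted p = 5.61e-05) at 12 h. The calls at 6 and 12 h were kept with any 1 library left out. The call at 3 h ended without wt MET 0 h replicate 1, any wt MET library at 3, 6 or 12 h, or any MET∆14 library at 0, 3 or 6 h. Over all fits with 1 library left out, the log2 fold change at 3 h lay between -0.46 and -0.20. In MET∆14 the 8 libraries were between 230.4 and 286.8 CPM, and the log2 fold changes of -0.15, 0.01 and -0.16 did not pass the test (edgeR adjusted p = 0.269, 0.973 and 0.228).

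DNAJB9, SDF2L1 and DNAJC3 encode cochaperones of BiP. Their calls came at different times, but this depended on the threshold. In MET∆14 each had a positive log2 fold change at 3 h. Without the pair of MET∆14 libraries at 12 h, edgeR called each of them there. DNAJB9 (ENSG00000128590, hg38 chr7:108569867-108574850), known as ERdj4, was at 32.92 and 29.9 CPM at 0 h in MET∆14 and at 42.99 and 42.9 at 3 h. It was higher at 3 h (log2 fold change 0.45, SE 0.143, edgeR adjusted p = 0.025), a call that ended without any MET∆14 library at 0 or 3 h (adjusted p up to 0.165) and with each line fitted alone (0.0614). Its libraries at 6 h (32.41 and 45.28 CPM) and 12 h (26.06 and 33.09 CPM) overlapped those at 0 h. In wt MET the same gene was at 69.74 and 58.18 CPM at 0 h, 46.94 and 49.47 at 3 h, 49.08 and 50.07 at 6 h, and 82.32 and 86.32 at 12 h. Its libraries at 3 and 6 h lay below both at 0 h, and those at 12 h above them. The values at 3 and 6 h did not pass the test (log2 fold changes -0.41 and -0.37, edgeR adjusted p = 0.0573 and 0.0528). Without the pair of MET∆14 libraries at 12 h, edgeR called both lower (adjusted p = 0.011 and 0.0137). The level at 12 h was higher than at 6 h (log2 fold change 0.77, SE 0.137, edgeR adjusted p = 0.00212), a call kept with any 1 library left out. It was also higher than at 0 h (log2 fold change 0.40, SE 0.136, edgeR adjusted p = 0.0335). The latter ended without wt MET 0 h replicate 2, any wt MET library at 3, 6 or 12 h, or either MET∆14 library at 3 h (adjusted p up to 0.248).

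SDF2L1 (ENSG00000128228, hg38 chr22:21642302-21644299), which forms a complex with BiP and its J proteins, had the largest rise of the 10 genes in MET∆14. There it was at 10.69 and 10.93 CPM at 0 h, 15.31 and 12.45 at 3 h, 19.39 and 18.25 at 6 h, and 15.49 and 20.49 at 12 h. Every library after HGF was above both at 0 h. The log2 fold change was 0.80 (SE 0.14, edgeR adjusted p = 0.000309) at 6 h and 0.72 (SE 0.143, edgeR adjusted p = 0.00109) at 12 h, both kept with any 1 library left out. At 3 h it was 0.35 (edgeR adjusted p = 0.0781), and edgeR without the pair of MET∆14 libraries at 12 h called it (0.0156). In wt MET it stayed between 6.789 and 8.201 CPM in all 8 libraries, with log2 fold changes of -0.25, -0.06 and -0.15 (edgeR adjusted p = 0.341, 0.831 and 0.497). SDF2L1 and HERPUD1, the pair with an exact ERSE-II among the sequences shown, were called in opposite directions at 6 and 12 h in MET∆14.

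DNAJC3 (ENSG00000102580, hg38 chr13:95677139-95794988), also known as P58IPK, a cochaperone and inhibitor of PERK, rose by a smaller step. In MET∆14 it was at 66.75 and 65.37 CPM at 0 h, 75.24 and 77.88 at 3 h, 81.81 and 93.27 at 6 h, and 85.45 and 83.89 at 12 h. All later libraries were above 0 h, with log2 fold changes of 0.41 (SE 0.08, edgeR adjusted p = 0.000725) at 6 h and 0.36 (SE 0.0806, edgeR adjusted p = 0.00262) at 12 h that were kept with any 1 library left out. At 3 h in MET∆14 the log2 fold change of 0.21 was not called by edgeR (adjusted p = 0.0558). DESeq2 (adjusted p = 0.0308) and edgeR without the pair of MET∆14 libraries at 12 h (0.00418) called it. In wt MET the gene was at 78.64 and 73.45 CPM at 0 h and at 86.13 and 90.22 at 12 h. This rise fell just short of the threshold (log2 fold change 0.21, SE 0.0801, edgeR adjusted p = 0.0511). It was called by DESeq2 (adjusted p = 0.0285) and by edgeR without the pair of MET∆14 libraries at 12 h (0.0142).

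CRELD2 (ENSG00000184164, hg38 chr22:49918167-49927540) and MANF (ENSG00000145050, hg38 chr3:51385291-51389397) encode ER proteins that can be secreted under stress, MANF also acting as a trophic factor for neurons. In MET∆14, CRELD2 was at 29.2 and 29.4 CPM at 0 h, 28.5 and 30.73 at 3 h, 36.38 and 38.22 at 6 h, and 31.91 and 37.45 at 12 h. It was called higher at 6 h only (log2 fold change 0.35, SE 0.121, edgeR adjusted p = 0.0288), and this ended without any MET∆14 library at 0 or 6 h (adjusted p up to 0.17) and in DESeq2 (0.0545). In wt MET it was at 3.617 and 3.252 CPM at 0 h and at 1.906 and 3.028 at 12 h. At this level the difference did not pass the test (log2 fold change -0.52, SE 0.21, edgeR adjusted p = 0.0687). Without the pair of MET∆14 libraries at 12 h, edgeR called it lower (adjusted p = 0.0427). MANF in MET∆14 was at 32.59 and 27.91 CPM at 0 h, 37.94 and 37.35 at 3 h, 39.3 and 46.36 at 6 h, and 27.64 and 41.9 at 12 h. It was higher at 6 h (log2 fold change 0.51, SE 0.167, edgeR adjusted p = 0.0221), which ended without MET∆14 0 h replicate 2 or 6 h replicate 2 (adjusted p up to 0.203) and with each line fitted alone (0.0524). Its libraries at 12 h spanned those at 0 h. In wt MET its libraries were between 14.04 and 18.91 CPM at all times, with no call.

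Between successive times, calls came between 6 and 12 h, higher in wt MET and lower in MET∆14. From 3 to 6 h, edgeR called 0 genes in wt MET, where 1.44% of all tested genes were higher and 1.66% lower, and 0 in MET∆14, where 4.67% were higher and 5.1% lower. DESeq2 also called 0 in either line, and an unadjusted p under 0.05 was reached by 1 gene in wt MET and 4 in MET∆14. From 6 to 12 h in wt MET, DNAJB9, HERPUD1 and XBP1 rose, 3 of 10 genes against 5.59% of all tested genes higher, and 0 fell, against 5.98% lower. From 6 to 12 h in MET∆14, HSPA5 and XBP1 fell, 2 of 10 genes against 10.3% of all tested genes lower, and 0 rose, against 8.3% higher. DESeq2 called 3 genes in wt MET and 2 in MET∆14 between these times, and an unadjusted p under 0.05 was reached by 3 genes in each line. The 3 calls in wt MET fell to 1 without wt MET 6 h replicate 1 or either 12 h library. The 2 in MET∆14 fell to 0 without MET∆14 6 h replicate 2 and to 1 without 12 h replicate 1, and rose to 4 without 12 h replicate 2.

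The difference between the lines in their response to HGF was tested as an interaction, the log2 fold change in MET∆14 minus that in wt MET. Over any time it was called in 7 of the 10 genes, where 37.6% of all tested genes were called, and DNAJC3, HSP90B1 and MANF were the others. At 3 h, 1 gene responded higher in MET∆14 (8.93% of all tested genes) and 1 lower (8.47%). At 6 h, 6 responded higher (16.4% of all tested) and 1 lower (13.8%), with a median difference of 0.50 over the 10 genes against 0.04 over all tested genes. These 7 calls fell to 3 without wt MET 0 h replicate 1, either wt MET 6 h library, MET∆14 0 h replicate 2 or MET∆14 6 h replicate 2, and to 4 without wt MET 0 h replicate 2. At 12 h, 3 responded higher (13% of all tested) and 3 lower (11%). HERPUD1 responded lower in MET∆14 at each time, with differences of -0.42 (SE 0.124, edgeR adjusted p = 0.0276), -0.74 (SE 0.124, edgeR adjusted p = 0.00037) and -1.23 (SE 0.124, edgeR adjusted p = 9.83e-06). The first of these ended without wt MET 0 h replicate 1, either wt MET 3 h library, MET∆14 0 h replicate 1 or either MET∆14 3 h library (adjusted p up to 0.113). The others were kept with any 1 library left out.

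XBP1 and HSPA5 responded lower in MET∆14 at 12 h, by -0.80 (SE 0.183, edgeR adjusted p = 0.00524) and -0.56 (SE 0.153, edgeR adjusted p = 0.0152). XBP1 kept this call with any 1 library left out, at differences from -1.07 to -0.57. HSPA5 lost it without wt MET 0 h replicate 2, wt MET 12 h replicate 2 or MET∆14 0 h replicate 1 (adjusted p up to 0.09). The genes that responded higher in MET∆14 were PDIA4 by 0.67 at 6 h and 0.66 at 12 h (edgeR adjusted p = 0.00266 and 0.00422) and SDF2L1 by 0.85 at 6 h and 0.87 at 12 h (edgeR adjusted p = 0.0067 and 0.00807). All of these were kept with any 1 library left out. DNAJB9 responded higher by 0.86 at 3 h (SE 0.2, edgeR adjusted p = 0.0075), also kept. Its difference had the opposite sign at 12 h, at -0.50 (SE 0.2), and was not called there (edgeR adjusted p = 0.0882). At 6 h the difference was 0.69 (edgeR adjusted p = 0.016), and this call ended without wt MET 0 h replicate 1, either wt MET 6 h library, MET∆14 0 h replicate 2 or 6 h replicate 2 (adjusted p up to 0.167).

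CRELD2 responded higher in MET∆14 by 0.76 at 6 h and 0.75 at 12 h (edgeR adjusted p = 0.0281 and 0.0344). Its call at 6 h ended without any library of either line at 0 or 6 h (adjusted p up to 0.129). Its call at 12 h ended without any library at 0 h or wt MET 12 h replicate 1 (up to 0.321). MANF responded higher by 0.77 at 6 h (SE 0.252, edgeR adjusted p = 0.0305), which ended without any wt MET library at 0, 3 or 6 h, MET∆14 0 h replicate 2, either MET∆14 3 h library or MET∆14 6 h replicate 2 (adjusted p up to 0.147). DNAJC3 responded higher by 0.32 at 6 h (SE 0.113, edgeR adjusted p = 0.0459), the least stable call. It ended without any wt MET library, any MET∆14 library at 0 or 3 h or MET∆14 6 h replicate 2 (adjusted p up to 0.302). It also ended with DESeq2's size factors (0.0508), no filter on low counts (0.157) and 10 counts required in every library (0.0839). HSP90B1 had differences of 0.20, 0.27 and 0.11, none called (edgeR adjusted p = 0.325, 0.132 and 0.614). Of all these differences, those of HERPUD1 at 6 and 12 h, PDIA4 and SDF2L1 at 6 and 12 h, DNAJB9 at 3 h and XBP1 at 12 h were kept with any 1 library left out.

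**Figure D3:**
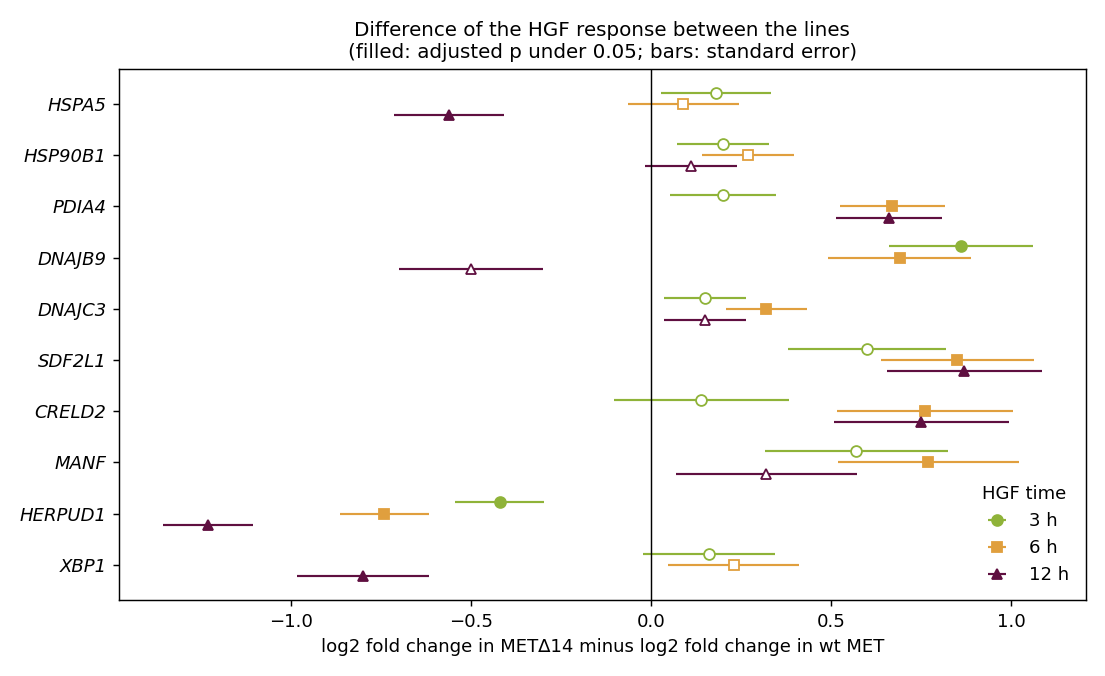
Difference of the response to HGF for each of the 10 genes (rows), as log2 fold change in MET∆14 minus log2 fold change in wt MET (x axis) at 3 h (circles), 6 h (squares) and 12 h (triangles); bars are standard errors and filled symbols have an adjusted p under 0.05 in edgeR. HERPUD1 lies left of 0 at each time, down to -1.23, and PDIA4, SDF2L1 and CRELD2 lie right of 0.

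The genes did not move as 1 block. Over the 16 libraries, after subtracting the mean of each line from log2 CPM, the correlation of each gene with the mean of the other 9 ran from -0.16 for HERPUD1 to 0.85 for MANF. Within MET∆14, HSPA5 (0.85), MANF (0.90), HSP90B1 (0.77), DNAJB9 (0.76) and XBP1 (0.75) followed the others most closely and HERPUD1 least (-0.35, all over 8 libraries). Within wt MET the same genes had values of -0.00, 0.77, 0.63, 0.59 and 0.30, and HERPUD1 0.45, also over 8 libraries. These libraries share depth and time as well as expression, and the values are descriptions. The summed level of the 10 genes was 2155 to 2609 CPM in wt MET and 2354 to 3397 CPM in MET∆14, most of it from HSPA5 and HSP90B1, with the lowest library of MET∆14 at 12 h and the highest at 6 h. Outside the lists of this pathway, the genes most like the mean of the 10 over the 16 libraries were TCTN3 (r = 0.887), MYD88 (0.880), MGAT2 (0.871), PIM1 (0.869) and THAP4 (0.864), out of 8408 genes ranked.

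Other genes of the pathway were described by lists named for function, with 165 genes in 7 lists. The lists were written with earlier results of these data known, and may not be independent of them. The values of named genes are log2 fold changes against 0 h of the same line. Shares in brackets are those of the list, each against the share of all tested genes. Of 31 other ER chaperones and folding enzymes, 9 were lower (29% against 18.2%) and 0 higher (0% against 16.9%) at 12 h in wt MET. PDIA4 also fell there. Among those in wt MET were FKBP9, a prolyl isomerase, at -1.04 (edgeR adjusted p = 2.3e-06) and PDIA5, a disulfide isomerase, at -0.63 (edgeR adjusted p = 0.0124) at 12 h. In MET∆14 at 6 h, 11 of the 31 were higher (35.5% against 21.6%) and 1 lower (3.23% against 22.5%). FKBP14, another prolyl isomerase, was at 0.52 there (edgeR adjusted p = 0.00037). At 12 h in MET∆14, 8 were higher (25.8% against 18.3%) and 7 lower (22.6% against 20.1%). The 1 gene lower at 6 h was CDNF, a relative of MANF, at -2.02 (edgeR adjusted p = 0.00448), with levels under 1 CPM. Of 25 genes of ER-associated degradation, the pathway in which HERPUD1 acts, 8 were higher (32% against 21.6%) and 3 lower (12% against 22.5%) at 6 h in MET∆14. SELENOS, which helps to extract misfolded proteins from the ER, was at 1.05 there (edgeR adjusted p = 2.77e-06), while HERPUD1 itself fell.

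Of 15 sensors and transcription factors of the response, 6 were higher (40% against 16.9%) and 2 lower (13.3% against 18.2%) at 12 h in wt MET. In MET∆14 at 12 h, 2 were higher (13.3% against 18.3%) and 6 lower (40% against 20.1%). In wt MET the gene of PERK, EIF2AK3, was higher at 3 h (0.67, edgeR adjusted p = 9.88e-05) and ATF6B, a relative of ATF6, lower at 12 h (-1.24, edgeR adjusted p = 6.51e-06). In MET∆14 CREB3L4, a membrane-bound transcription factor, was lower at 6 h (-2.01, edgeR adjusted p = 7.66e-07). Of 18 genes of the ATF4 branch, 6 were higher (33.3% against 16.9%) and 3 lower (16.7% against 18.2%) at 12 h in wt MET. In MET∆14 at 12 h, 0 were higher (0% against 18.3%) and 12 lower (66.7% against 20.1%), with a median of -0.66. The gene of CHOP, DDIT3, was at 1.21 at 3 h and 0.58 at 12 h in wt MET (edgeR adjusted p = 1.23e-05 and 0.00257). In MET∆14 it was at -0.37 at 3 h, which was not called, and -1.65 at 12 h (edgeR adjusted p = 0.0586 and 1.48e-06).

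Steps before and after folding in the ER were described in the same way. Of 32 genes of translocation into the ER and N-glycosylation, 17 were higher (53.1% against 21.6%) and 0 lower (0% against 22.5%) at 6 h in MET∆14. In wt MET at 6 h, 5 were higher (15.6% against 16.4%) and 5 lower (15.6% against 17.8%). SSR3, a subunit of the translocon-associated complex, was at 1.18 at 6 h in MET∆14 (edgeR adjusted p = 1.36e-07), and SEC61A1, the channel, at -0.66 at 12 h in wt MET (edgeR adjusted p = 4.09e-05). Of 26 genes of transport from the ER to the Golgi, 12 were higher (46.2% against 21.6%) and 0 lower (0% against 22.5%) at 6 h in MET∆14. At 12 h in MET∆14, 17 were higher (65.4% against 18.3%) and 0 lower (0% against 20.1%). In wt MET at 12 h, 5 were higher (19.2% against 16.9%) and 3 lower (11.5% against 18.2%). SEC24A, a cargo adaptor of the coat of transport vesicles, was higher in both, at 1.40 in wt MET (edgeR adjusted p = 1.41e-07) and 0.92 in MET∆14 (edgeR adjusted p = 3.63e-06) at 6 h. Of 18 cytosolic heat shock proteins, 12 were higher (66.7% against 15.5%) and 3 lower (16.7% against 16.1%) at 3 h in MET∆14. In wt MET at 3 h, 6 were higher (33.3% against 10.3%) and 0 lower (0% against 7.16%). HSPH1, an HSP110 cochaperone, was at 1.12 in MET∆14 (edgeR adjusted p = 1.36e-07), and HSPA8, the constitutive HSP70, at 1.13 in wt MET (edgeR adjusted p = 2.79e-05) at that time. No test of a whole list was made.

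**Figure D4:**
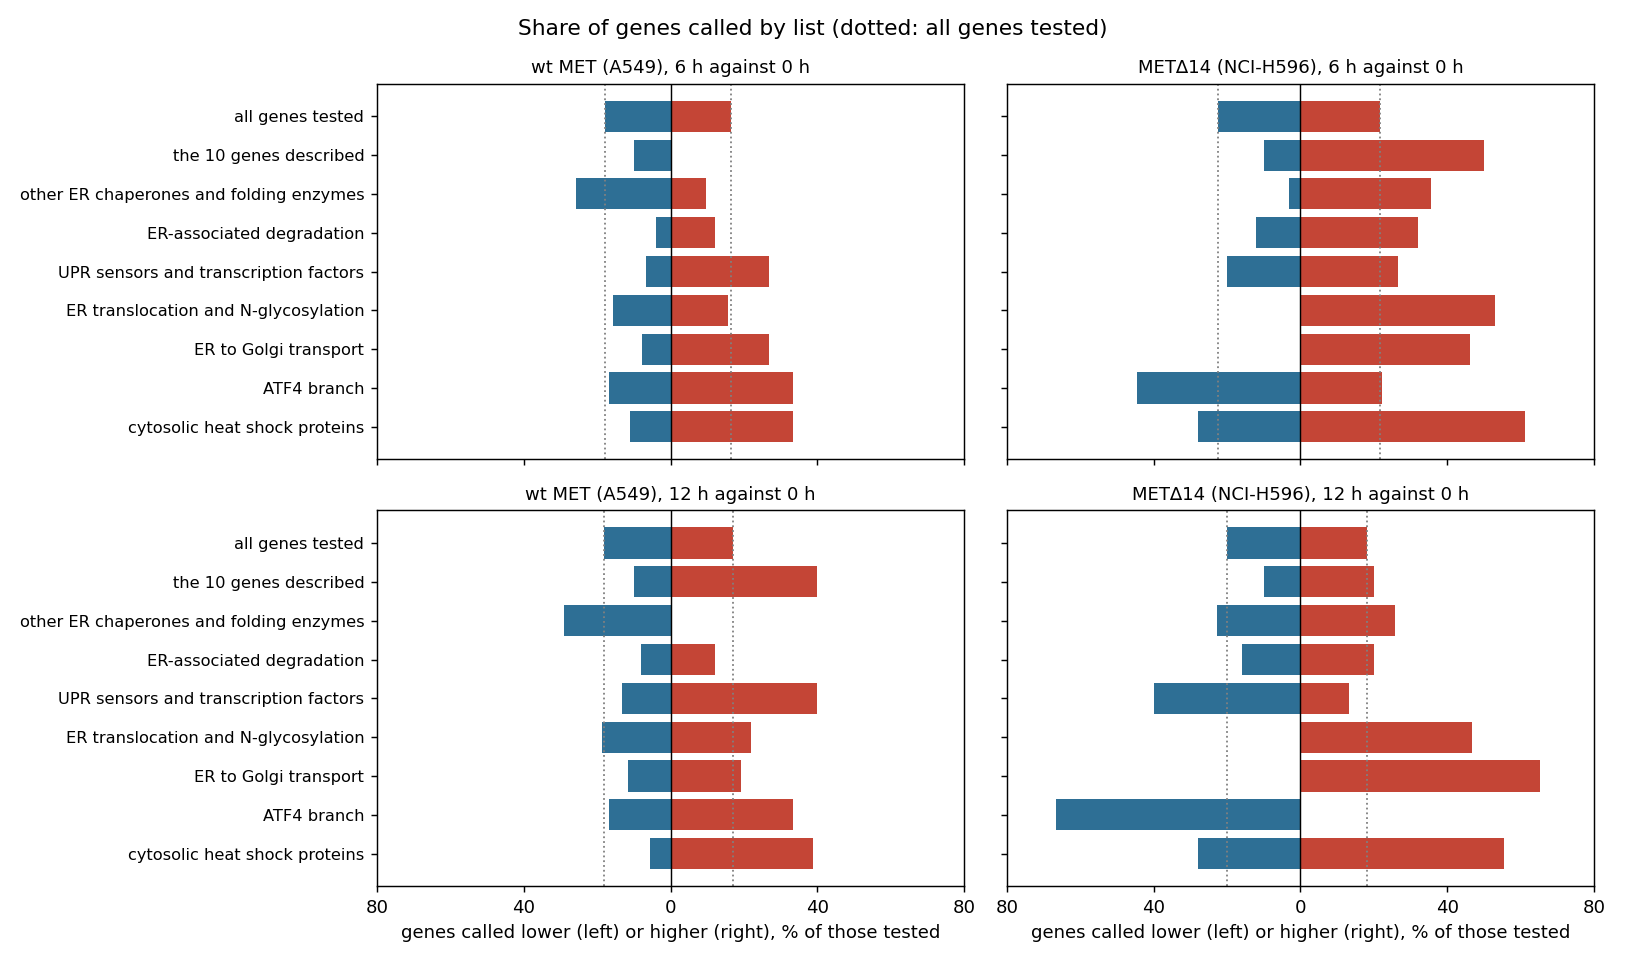
Share of genes called higher (right, red) and lower (left, blue) in percent of those tested, for all genes, the 10 genes described and 7 lists (rows), at 6 h (top) and 12 h (bottom) of HGF in wt MET (left) and MET∆14 (right); dotted lines repeat the share over all genes tested. At 12 h in MET∆14 the list of transport from the ER to the Golgi has 17 of 26 genes higher and the ATF4 list 12 of 18 lower.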

How the data were processed

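RNA-seq libraries of A549 (wt MET) and NCI-H596 (MET∆14) cells were analysed at 0, 3, 6 and 12 h of HGF. The authors mapped reads to hg38 and deposited estimated counts per gene as whole numbers, without normalization; STAR 2.5.0 and RSEM 1.3.2 are in the submitters' processing notes, and strand, annotation version and rounding are not given in the sources used here. The column names write H549 where the titles write A549, and columns were matched to titles by the time and replicate they give. Library totals set the precision and ran from 10158590 to 23909304. Genes were filtered with filterByExpr (minimum count of 10, minimum total of 15), scaled by TMM and fitted in edgeR 4.0.16 (R 4.3.3, limma 3.58.1) with the robust quasi-likelihood test over all 16 libraries and 1 coefficient per condition, and p-values were adjusted over 15067 genes by the Benjamini-Hochberg method. The common biological coefficient of variation was 0.0868. Alternatives were DESeq2 1.42.0, other scaling and filters, a replicate block, each line alone and each library left out. Replicate numbers did not pair the libraries, and the reported fit has no block. The scripts were checked on simulated data. The 10 genes and the lists were chosen with earlier results of these data known. From each list the text names genes among the 2 per line with the largest absolute mean log2 fold change over the times among called genes. Genes most like the 10 were ranked by Pearson correlation of line-centred log2 CPM (prior count of 2, mean of at least 3 in each line).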

Additional observations from a re-analysis of the deposited data

Results flagged for a closer look

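In 7 of the 10 genes the response to HGF differed between the lines by the interaction test in edgeR, and the difference of log2 fold changes, MET∆14 minus wt MET, is given at the time where it was largest. HERPUD1 differed by -1.23, XBP1 by -0.80 and HSPA5 by -0.56 at 12 h, SDF2L1 by 0.87 at 12 h, DNAJB9 by 0.86 at 3 h, CRELD2 by 0.76 at 6 h and PDIA4 by 0.67 at 6 h. Groups held 2 libraries, too few to look for single libraries far from the rest. Each MET status is 1 cell line, and the part of MET∆14 in these differences cannot be told apart from other differences between the lines.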

How the results depend on the processing

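The number of the 10 genes called was within 1.5 times the reported one in most settings. Numbers that moved by more were, in wt MET, 2 genes at 3 h and 2 at 6 h with DESeq2, 2 and 3 with no filter on low counts, and 3 at either time with each line fitted alone. In MET∆14 they were 4 genes at 3 h with DESeq2, 4 with no filter and 1 with each line alone, and 1 from 6 to 12 h with each line alone. The single time effect was called in 1 gene with DESeq2's size factors. With a replicate block it was called in 0 genes (2 without it), and no other number of calls moved by over 1.5 times under the block. The block also ended the call of DNAJC3 for the difference of response at 6 h (adjusted p = 0.0561). The deviations of same-numbered libraries from their condition means correlated by -0.159 to 0.111 over 28 pairs, of which 1 was over 0.1, so that the numbers do not pair the libraries.

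With both MET∆14 libraries at 12 h left out, a setting chosen after seeing the data, the genes called in wt MET were 3 at 3 h, 4 at 6 h, 8 at 12 h and 1 from 3 to 6 h, those in MET∆14 were 7 at 3 h and 3 from 3 to 6 h, and 5 for the difference of response at 3 h. Over all tested genes the calls then rose from 2629 to 4176 at 3 h and from 467 to 1288 between 3 and 6 h in wt MET, from 1743 to 3183 between 6 and 12 h in wt MET, from 1472 to 3059 between 3 and 6 h in MET∆14, and from 2621 to 4268 for the difference at 3 h.

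With 1 library left out at a time, the lone library of its condition being assumed to vary like the others, the genes called in wt MET were 0 to 3 at 3 h, 1 to 3 at 6 h, 1 to 8 at 12 h, 0 to 1 from 3 to 6 h, 1 to 3 from 6 to 12 h and 3 to 6 over any time. In MET∆14 they were 1 to 7 at 3 h, 3 to 8 at 6 h, 3 to 6 at 12 h, 0 to 3 from 3 to 6 h, 0 to 4 from 6 to 12 h and 6 to 8 over any time. For the difference of response they were 1 to 4, 3 to 8 and 4 to 7 at 3, 6 and 12 h and 5 to 8 over any time, for the lines at 0 h 6 to 9, and for the single time effect 0 to 2. Of 46 calls of single genes at single times, 23 were kept with every library left out and 23 were lost with at least 1, and none changed sign.

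Log2 fold changes that turned sign under the other settings were all uncalled, and close to 0 there. XBP1 at 6 h in wt MET went to 0.0018 (size factors), 0.00184 (DESeq2), 0.00595 (10 counts in every library) and 0.0069 (line alone). MANF from 3 to 6 h in wt MET went to 0.000114, 0.00267 and 0.00197 under the first 3 of these. HSP90B1 from 6 to 12 h in wt MET went to -0.00552, -0.00566, -0.00287 and -0.009 under these 4, -0.0227 with no filter and -0.01 without the MET∆14 pair at 12 h. HSP90B1 at 3 h in MET∆14 went to 0.0216 with the line alone and 0.0183 without that pair, and PDIA4 at 6 h in MET∆14 to -0.031 with 10 counts in every library. The causes were not tested, and no scaling moved the median of all genes by over 0.1.

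With 1 library left out at a time, uncalled log2 fold changes also turned sign, with these lowest and highest values. For wt MET at 6 h they were XBP1 -0.134 to 0.133, HERPUD1 -0.122 to 0.0372 and SDF2L1 -0.0777 to 0.00371. For wt MET at 12 h they were MANF -0.335 to 0.0481. For wt MET from 3 to 6 h they were HSP90B1 -0.00627 to 0.121, DNAJB9 -0.00362 to 0.082, DNAJC3 -0.0235 to 0.0668, MANF -0.119 to 0.0971 and HERPUD1 -0.00371 to 0.155. For wt MET from 6 to 12 h they were HSP90B1 -0.0951 to 0.0389, MANF -0.0941 to 0.289 and CRELD2 -0.462 to 0.198. For MET∆14 at 3 h they were HSP90B1 -0.0823 to 0.0292 and CRELD2 -0.0414 to 0.0749. For MET∆14 at 6 h they were PDIA4 -0.0848 to 0.086. For MET∆14 at 12 h they were DNAJB9 -0.278 to 0.0782 and MANF -0.137 to 0.474. For MET∆14 from 3 to 6 h they were DNAJB9 -0.417 to 0.0667 and HSPA5 -0.0545 to 0.132. For MET∆14 from 6 to 12 h they were DNAJC3 -0.135 to 0.0559 and SDF2L1 -0.28 to 0.123. For the difference of response at 6 h they were HSPA5 -0.0386 to 0.148. For MET∆14 against wt MET at 0 h they were XBP1 -0.0578 to 0.21.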

Other observations

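The 10 genes took 0.204% to 0.247% of all counts in wt MET libraries and 0.249% to 0.332% in MET∆14 libraries. By FPKM the place of PDIA4 among the 10 genes in wt MET went from the sixth at 0 h, at 21.7 ± 3.02 (SD, n = 2), to the seventh at 12 h, at 12.3 ± 1.14, while in MET∆14 it held the second place at every time (the third at every time when the longest transcript was used as the length). HERPUD1 in MET∆14 went from the fifth place at 0 h, at 16.5 ± 1.08, to the ninth at 12 h, at 8.77 ± 0.878, below MANF at 16.3 ± 4.71 (the seventh when the longest transcript was used as the length). Ranked by Spearman correlation, the 5 genes most like the 10 took the places 23 (TCTN3), 14.5 (MYD88), 20.5 (MGAT2), 8 (PIM1) and 1 (THAP4) of 8408.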
